A study of Arabidopsis thaliana with 9 samples.

Results

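In Arabidopsis roots flown on a jet, a set of transcripts stood above the level of ground roots in the tube fixed right after microgravity and near that level in the tube fixed later. The set holds 134 genes, all protein coding, each chosen through 1 of the 16722 probe sets that name a single gene. A gene belonged to it when the mean of the First-Actuated roots exceeded the Ground Control mean by at least 0.8 on the log2 scale, while the Last-Actuated mean lay within 0.4 of the Ground Control mean. The First-Actuated mean also had to be at least 3, and all 3 First-Actuated values had to lie above the 6 other values. STZ and BGLU27, which met these limits too, were left out by name. The members were thus chosen by their measured values on all 9 arrays, and their levels and differences are given as a description, without a test.

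The plants were Arabidopsis thaliana seedlings, 10 days old, of the Wassilewskija (WS) background. All were grown under 24 h of light at 19 °C, with a stated range of 2 °C. All 9 samples carried the transgene pCaMV35S:14-3-3κ:GFP, a GFP fusion of a 14-3-3 regulatory protein driven by the strong 35S promoter of cauliflower mosaic virus, so there was no group without it. First-Actuated roots (3 samples) were fixed with RNAlater on the second flight of an F-104 directly after about 10 s of microgravity, which had followed a 4 g climb of some 30 s. Last-Actuated roots (3 samples) were fixed on the same flight after about 1.5 min of level flight, and Ground Control roots (3 samples) stayed on the ground in a tube that was actuated during the flight. The 3 samples of a condition were separate portions of roots from 1 fixation tube, so an effect of the condition and one of the tube cannot be told apart, and each spread and p-value below covers variation within a tube alone.

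Mechanical, wounding and immune stimuli are known to raise many plant transcripts within minutes, and many of these early transcripts are short-lived and return to their resting level soon after. Their products include ubiquitin ligases that dampen signalling, enzymes of jasmonate synthesis, and enzymes that build or modify the cell wall, among them those of the phenylpropanoid pathway that supplies lignin. A further group known from stressed plants acts in plastids, where sulphate is activated and where lipid droplets are coated by fibrillins. These are general points, and whether the members rose and fell in such a way was not tested.

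The 9 arrays had similar overall levels, with medians of 2.09 to 2.15 log2 units, and the 3 arrays of a condition correlated at 0.990 to 0.991 in First-Actuated, 0.984 to 0.989 in Last-Actuated and 0.975 to 0.984 in Ground Control roots. These Pearson coefficients are across probe sets, which are not independent replicates. Of 14 root marker genes 2 were measured, EXPA7 and EXPA18, both of root hair cells. The log2 of their summed signal was 5.45 to 6.08 in First-Actuated, 5.42 to 5.61 in Last-Actuated and 5.40 to 5.79 in Ground Control roots, and EXPA18 is itself one of the 134 genes. Of 14 shoot marker genes 3 were measured, and the log2 of their sum was 6.99 to 7.16 in First-Actuated, 6.89 to 6.96 in Last-Actuated and 7.01 to 7.33 in Ground Control roots. The measured shoot markers, LHCB4.1, RCA and LHB1B2, encode photosynthesis proteins that are also found at lower levels outside leaves. The part of cell composition in the values below was not tested, and in whole roots fewer cells of a type cannot be told apart from less RNA per cell.

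Of the 16722 probe sets, 6022 had a First-Actuated mean of at least 3, and 348 of those also stood at least 0.8 above Ground Control. In 287 of the 348 the First-Actuated values lay above all others, and these split into 149 that were still at least 0.4 above Ground Control in the Last-Actuated tube, 136 that lay within 0.4 of it, and 2 that lay at least 0.4 below it. The 136 are 0.813% of the probe sets. For comparison, all 3 First-Actuated values lay above the 6 others in 4.92% of all 16722 probe sets, whatever their level. The mirrored limits, with all First-Actuated values below the 6 others, were met by 55 probe sets. Limits that asked for a rise in the Last-Actuated tube alone were met by 10.

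**Figure D1:**
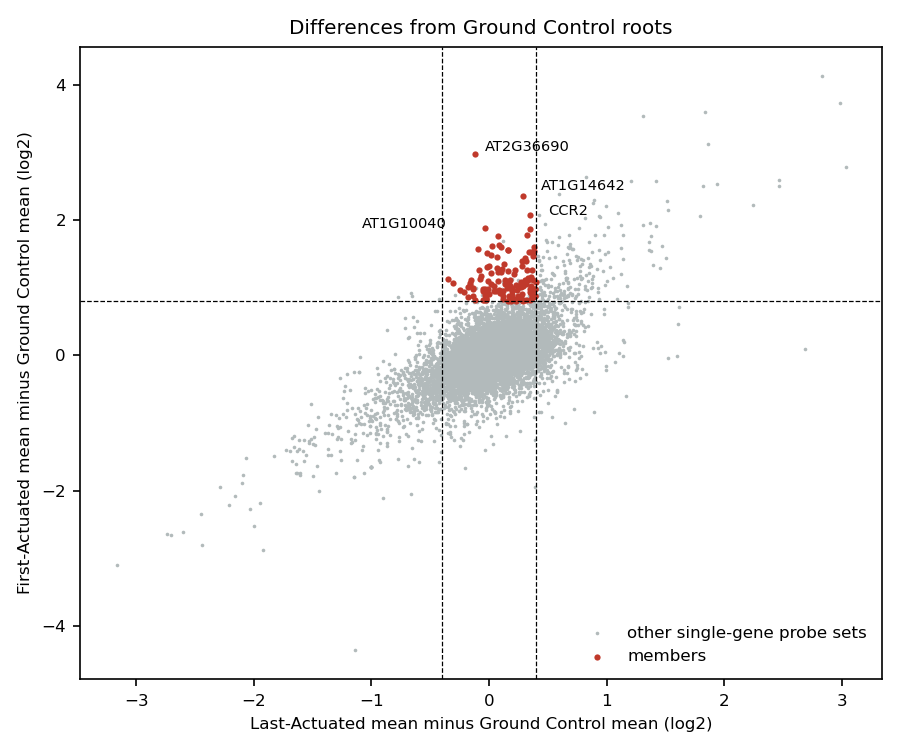
Each point is a probe set naming a single gene, with the Last-Actuated minus Ground Control mean on the x axis and the First-Actuated minus Ground Control mean on the y axis, both in log2 units. Dashed lines mark the limits of 0.8 and 0.4, and the 134 members, in red, lie above the horizontal line and between the vertical ones, topped by AT2G36690 at 2.97. Grey points in the same space failed another limit or were left out by name.

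The members' differences between First-Actuated and Ground Control means ran from 0.80 to 2.97 with a median of 1.03, which is 2.04-fold. The median difference over all 16722 probe sets was 0.0095. Of the 134, 72 differed by at least 1, 18 by at least 1.5 and 3 by at least 2. The Last-Actuated minus Ground Control differences ran from -0.35 to 0.39 with a median of 0.16, and the Last-Actuated minus First-Actuated differences from -3.09 to -0.48 with a median of -0.92. In 38 members the Last-Actuated mean lay within 0.1 of the Ground Control mean.

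A limit on means alone does not say that the Last-Actuated roots were at ground level. The Last-Actuated mean was above the Ground Control mean in 99 members and below it in 35. The share above, 73.9%, stands beside 55.5% of all 16722 probe sets and 51.0% of the 6022. All 3 Last-Actuated values fell inside the range of the Ground Control values in 53 members, 39.6%, beside 21.9% of all probe sets and 22.3% of the 6022. In 10 members they all lay above that range, a share of 7.46% beside 7.25% of all probe sets and 10.5% of the 6022. In 0 members they all lay below it, beside 5.47% of all probe sets and 9.58% of the 6022. The limits themselves bear on these shares, so nothing is read from them. The 10 include OPCL1, CCOAMT, SEC1B and CYTC-2. CYTC-2 had the widest separation of these 10, with the lowest Last-Actuated value 0.33 above the highest Ground Control value.

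The gene table gives a name for 20 of the 134 and only a locus identifier for the other 114. The named genes are described first, by what their products are known to do, and in each sentence the 3 values are those of replicates 1, 2 and 3 as log2 expression. Levels of different genes are not set against each other, since probe sets differ in how brightly they bind.

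**Figure D2:**
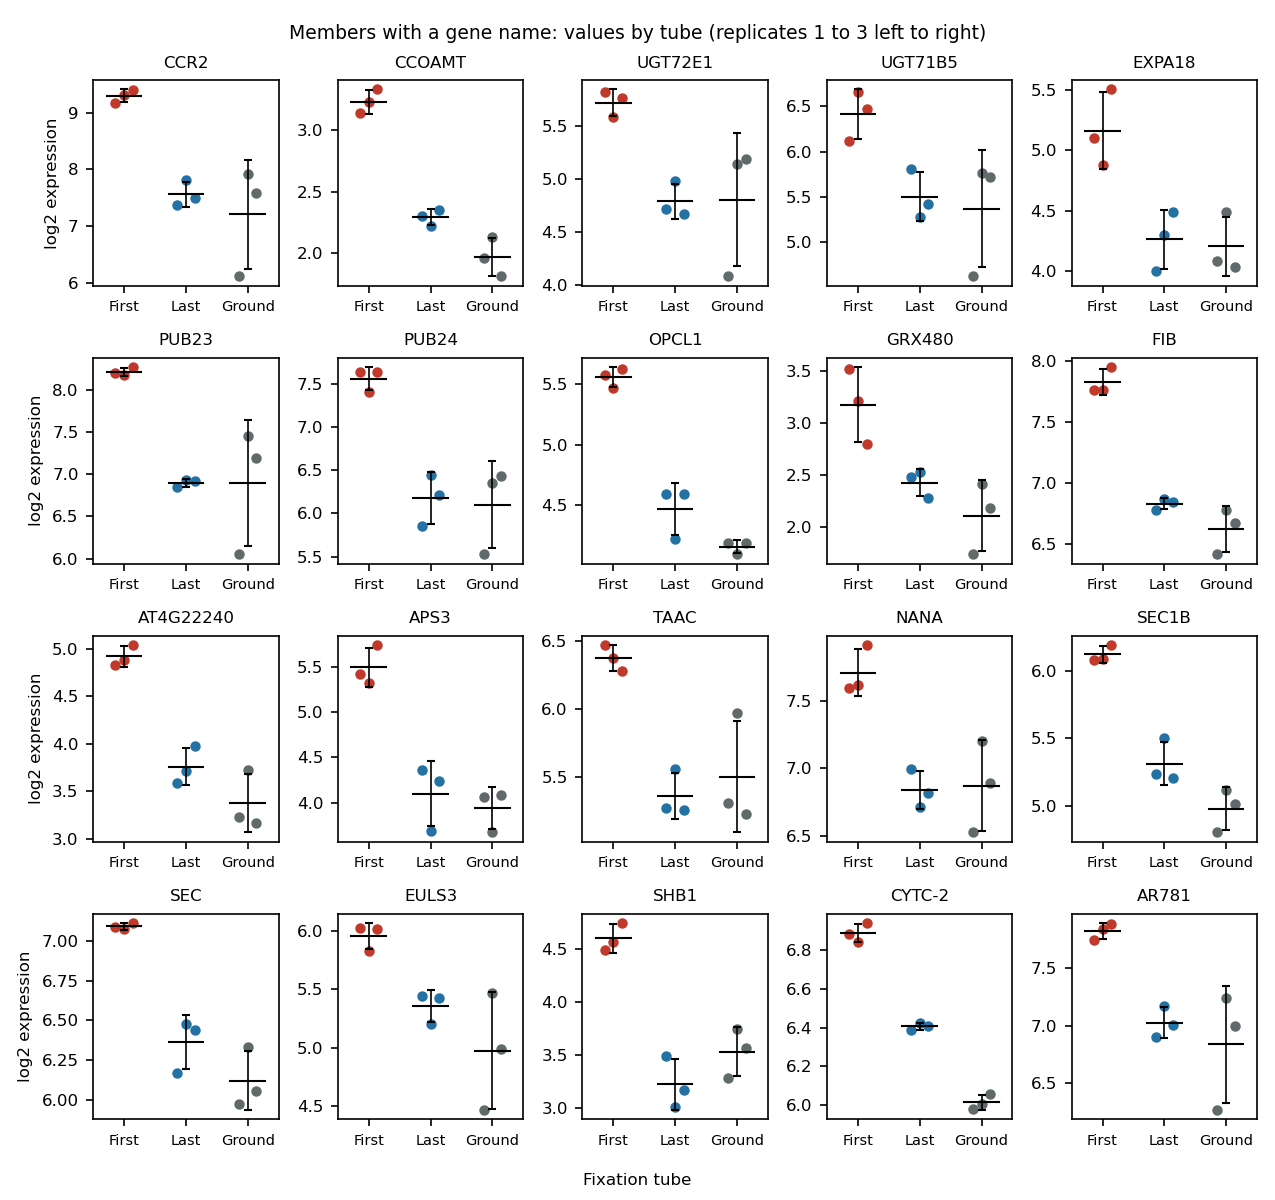
Log2 expression of the 20 members with a gene name, one panel per gene with its own y axis, in First-Actuated (left), Last-Actuated (middle) and Ground Control (right) roots. Points are replicates 1 to 3, long bars the mean and whiskers the SD (n = 3), and in most panels the Ground Control points spread more widely than the flight points, as in CCR2, where Ground Control replicate 1 stood at 6.12.

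Of the 5 named members grouped under cell wall and phenylpropanoid metabolism, CCR2 had the largest difference. It encodes a cinnamoyl-CoA reductase, an enzyme of the first step committed to lignin monomers, and is the isoform linked to stress and pathogens rather than to normal wood and vessel formation. CCR2 stood at 9.17, 9.32 and 9.39 in First-Actuated roots, at 7.37, 7.81 and 7.49 in Last-Actuated roots and at 6.12, 7.93 and 7.59 in Ground Control roots. The Last-Actuated values lay inside the wide range of the Ground Control values, whose replicate 1 was far below the other 2. The means were 9.29 ± 0.12, 7.56 ± 0.23 and 7.21 ± 0.96 (SD, n = 3 each), a 4.24-fold difference between First-Actuated and Ground Control.

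CCOAMT encodes a caffeoyl-CoA O-methyltransferase, which methylates lignin precursors. It stood at 3.14, 3.23 and 3.33 in First-Actuated roots, at 2.30, 2.22 and 2.35 in Last-Actuated roots and at 1.96, 2.13 and 1.81 in Ground Control roots. Here the 3 tubes did not overlap, and the Last-Actuated values lay between the others. The lowest Last-Actuated value was only 0.096 above the highest Ground Control value. All Ground Control values of this gene lay below 2.15, the median level of probe sets naming a single gene. UGT72E1 encodes a glucosyltransferase that acts on lignin monomer aldehydes. Its values were 5.82, 5.58 and 5.76 in First-Actuated, 4.72, 4.98 and 4.67 in Last-Actuated and 4.08, 5.14 and 5.19 in Ground Control roots, a difference of 0.91. The Last-Actuated mean was 0.01 below the Ground Control mean.

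UGT71B5 was grouped here only as another member of the glucosyltransferase family, and no role in lignin or the cell wall is given for it. It stood at 6.12, 6.66 and 6.47 in First-Actuated, 5.80, 5.27 and 5.42 in Last-Actuated and 4.61, 5.76 and 5.72 in Ground Control roots. Only 0.32 separated its lowest First-Actuated value from the highest of the other 6, which was a Last-Actuated one. EXPA18, an expansin of root hairs that loosens the cell wall, stood at 5.10, 4.87 and 5.50 in First-Actuated, 4.00, 4.29 and 4.49 in Last-Actuated and 4.08, 4.49 and 4.04 in Ground Control roots. Its Last-Actuated and Ground Control values overlapped fully, and their means differed by 0.06. EXPA7, the other measured expansin of root hairs, did not share the pattern, with 4.38, 3.86 and 4.49 in First-Actuated, 4.74, 4.58 and 4.73 in Last-Actuated and 4.65, 5.04 and 4.94 in Ground Control roots (First-Actuated minus Ground Control -0.63, limma, adjusted p = 0.0685).

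Among the 4 named members linked to defence and jasmonate, PUB23 and PUB24 encode U-box ubiquitin ligases that, together with PUB22, are known to dampen immune signalling. PUB23 was tight in flight roots and spread on the ground, at 8.20, 8.19 and 8.27 in First-Actuated, 6.85, 6.94 and 6.92 in Last-Actuated and 6.05, 7.46 and 7.19 in Ground Control roots. PUB24 stood at 7.64, 7.41 and 7.64 in First-Actuated, 5.85, 6.45 and 6.22 in Last-Actuated and 5.53, 6.35 and 6.43 in Ground Control roots. Both had Last-Actuated means within 0.1 of Ground Control, and First-Actuated means 2.50-fold (PUB23) and 2.75-fold (PUB24) above it.

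PUB22 was not a member. It stood at 6.09, 6.00 and 6.09 in First-Actuated, 5.98, 5.92 and 5.94 in Last-Actuated and 5.47, 5.96 and 5.95 in Ground Control roots. Its First-Actuated minus Ground Control difference was 0.27 with an adjusted p of 0.365 by limma, so a change was not detected for the third ligase of the trio.

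OPCL1 encodes a peroxisomal CoA ligase that activates a jasmonate precursor. It stood at 5.58, 5.47 and 5.63 in First-Actuated, 4.59, 4.23 and 4.59 in Last-Actuated and 4.19, 4.097 and 4.19 in Ground Control roots. Its ground values were among the tightest of the group (SD 0.055), and all Last-Actuated values lay above them. GRX480, a glutaredoxin that binds TGA transcription factors, stood at 3.52, 3.21 and 2.80 in First-Actuated, 2.48, 2.53 and 2.28 in Last-Actuated and 1.74, 2.42 and 2.18 in Ground Control roots. Its First-Actuated mean, 3.17, lay close to the limit of 3, and only 0.27 separated its lowest First-Actuated value from the highest other value.

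The 5 named members of plastid and sulphur metabolism had differences of 0.83 to 1.56. APS3 encodes an ATP sulphurylase, which activates sulphate for assimilation. It stood at 5.42, 5.32 and 5.74 in First-Actuated, 4.36, 3.69 and 4.24 in Last-Actuated and 4.06, 3.67 and 4.09 in Ground Control roots, and the values of the other two tubes overlapped. AT4G22240, listed as fibrillin FBN1b, and FIB, a closely related fibrillin, encode proteins of plastid lipid bodies. AT4G22240 stood at 4.83, 4.88 and 5.04 in First-Actuated, 3.59, 3.71 and 3.97 in Last-Actuated and 3.23, 3.73 and 3.17 in Ground Control roots. FIB stood at 7.77, 7.77 and 7.95 in First-Actuated, 6.78, 6.87 and 6.84 in Last-Actuated and 6.41, 6.78 and 6.67 in Ground Control roots. How far probes of one of these related genes also bind the other was not tested. They were the only fibrillins measured under these names.

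TAAC is an adenine nucleotide carrier of plastid membranes that is also known to move activated sulphate. It stood at 6.47, 6.38 and 6.28 in First-Actuated, 5.27, 5.56 and 5.26 in Last-Actuated and 5.31, 5.97 and 5.23 in Ground Control roots. Its Last-Actuated mean was 0.14 below the Ground Control mean. NANA, a chloroplast aspartyl protease, had a First-Actuated mean of 7.71 ± 0.18, a Last-Actuated mean of 6.84 ± 0.14 and a Ground Control mean of 6.87 ± 0.33 (SD, n = 3 each). Beside these plastid genes, the shoot marker LHB1B2, a light-harvesting protein gene, moved the other way. It stood at 2.79, 2.86 and 2.86 in First-Actuated, 2.33, 2.73 and 2.54 in Last-Actuated and 3.91, 3.32 and 4.01 in Ground Control roots. It was lower in both flight tubes (limma, adjusted p = 0.0175 in First-Actuated and 0.0140 in Last-Actuated roots), while RCA and LHCB4.1 differed by at most 0.06 between First-Actuated and Ground Control means, and the part of these markers in the result was not tested. Its adjusted p in First-Actuated roots was 0.0643 to 0.0749 without any 1 First-Actuated replicate or without Ground Control replicate 1 or 3. In Last-Actuated roots it was 0.0545 to 0.0674 without Last-Actuated replicate 1 or 3 or Ground Control replicate 1 or 3.

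The other 6 named members had differences of 0.88 to 1.14. SEC1B belongs to the Sec1/Munc18 family of vesicle fusion regulators and stood at 6.08, 6.09 and 6.19 in First-Actuated, 5.23, 5.50 and 5.20 in Last-Actuated and 4.80, 5.12 and 5.01 in Ground Control roots. SEC, an unrelated gene for an O-GlcNAc transferase that attaches sugars to proteins of nucleus and cytosol, was the tightest of the named members in First-Actuated roots, at 7.09, 7.07 and 7.11. Its Last-Actuated values were 6.17, 6.48 and 6.44 and its Ground Control values 5.98, 6.33 and 6.06. CYTC-2, a cytochrome c of the mitochondrial electron transport chain, gave 3 separate levels, at 6.88, 6.85 and 6.94 in First-Actuated, 6.39, 6.42 and 6.41 in Last-Actuated and 5.98, 6.00 and 6.06 in Ground Control roots.

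SHB1, known from mutants with short hypocotyls under blue light, was one of the members whose Last-Actuated mean lay below ground level. It stood at 4.48, 4.56 and 4.74 in First-Actuated, 3.49, 3.02 and 3.17 in Last-Actuated and 3.29, 3.74 and 3.57 in Ground Control roots, with a Last-Actuated minus Ground Control difference of -0.31. EULS3, a lectin of the Euonymus type, and AR781 had First-Actuated means of 5.96 and 7.83, Last-Actuated means of 5.36 and 7.03 and Ground Control means of 4.97 and 6.84. In both genes Ground Control replicate 1 was the lowest value of all 9 arrays.

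The members with the largest differences mostly carry a locus identifier alone. AT2G36690 led with 5.69, 5.60 and 5.67 in First-Actuated roots, against 2.51, 2.71 and 2.47 in Last-Actuated and 1.92, 3.13 and 3.01 in Ground Control roots. The difference of 2.97 is 7.85-fold, and a gap of 2.48, the widest of the 134 and of all 16722 probe sets, separated the First-Actuated values from the rest. AT1G14642 stood at 5.54, 6.09 and 5.83 in First-Actuated, 4.03, 4.12 and 3.12 in Last-Actuated and 3.19, 3.74 and 3.48 in Ground Control roots. Last-Actuated replicate 3 lay below the Ground Control values and the other 2 replicates above them. AT1G10040 was uniform in all 3 tubes, at 5.25, 5.44 and 5.55 in First-Actuated, 3.42, 3.61 and 3.48 in Last-Actuated and 3.52, 3.44 and 3.65 in Ground Control roots.

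AT4G33905 stood at 4.32, 4.53 and 4.09 in First-Actuated, 2.93, 2.95 and 2.52 in Last-Actuated and 2.45, 2.73 and 2.16 in Ground Control roots. AT5G57010 stood at 5.55, 5.38 and 5.44 in First-Actuated, 4.09, 3.74 and 4.16 in Last-Actuated and 3.63, 3.85 and 3.55 in Ground Control roots. In both, 2 of the 3 Last-Actuated values were above the whole Ground Control range. AT3G56200 was the most even of the 12 largest differences in First-Actuated roots, at 8.29, 8.30 and 8.31, against 6.80, 6.62 and 6.87 in Last-Actuated and 6.29, 7.08 and 6.66 in Ground Control roots. AT5G53680 was the least even, at 4.37, 5.32 and 4.65 in First-Actuated, 3.67, 2.26 and 3.40 in Last-Actuated and 3.97, 1.96 and 3.67 in Ground Control roots. The remaining 4 of these 12, AT1G32970, AT1G26730, AT3G56250 and AT4G29780, differed by 1.61 to 1.77.

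The 5 members with the brightest probe sets in First-Actuated roots are given for completeness, since brightness does not order genes by transcript level. AT3G14200 stood at 10.56, 10.78 and 10.70, against 9.76, 9.75 and 10.00 in Last-Actuated and 9.58, 10.15 and 9.86 in Ground Control roots. AT4G34150, AT5G35735, AT5G23380 and CCR2 had First-Actuated means of 9.29 to 9.54 and differences of 0.96 to 2.08. In all, 13 members had a First-Actuated mean of at least 8, 84 one between 5 and 8, and 37 one under 5.

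**Figure D3:**
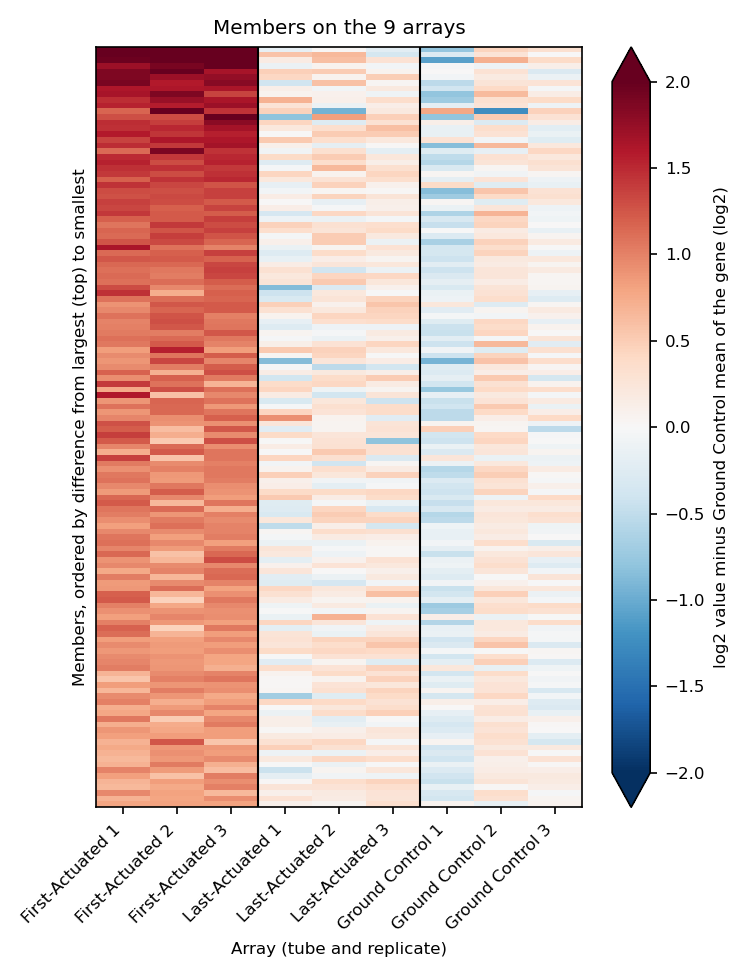
Each row is 1 of the 134 members, from the largest (top) to the smallest difference, and each column an array, with First-Actuated arrays on the left, Last-Actuated in the middle and Ground Control on the right. The colour is the log2 value minus the gene's Ground Control mean, cut at 2 in both directions; the First-Actuated columns are red throughout, and Ground Control replicate 1 is blue in most rows, being the lowest Ground Control value in 101 of them.

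Membership was close-run at each limit. The 3 genes just inside the limit of 0.8 were AT3G05500, AT5G55970 and AT4G36945, each with a difference of 0.80, and the 3 just outside were AT3G17920, AT1G33590 and AT2G16900, also at 0.80 when rounded. At the limit on the Last-Actuated tube, AT4G24410, CYTC-2 and AT3G56740 were inside at 0.39, and AT1G56145, AT3G50910 and AT2G40095 outside at 0.41 to 0.42. At the limit of 3 on the First-Actuated mean, GRX480, AT4G29070 and CCOAMT were inside at 3.17 to 3.23, and AT5G43950, AT4G14450 and AT1G07560 outside at 2.81 to 2.91. The narrowest gap between First-Actuated and other values was that of AT3G46080, where a Last-Actuated value of 5.15 lay 0.0087 below the lowest First-Actuated value of 5.16. The gap was at least 0.5 in 67 members and at least 1 in 10.

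The members' spread was uneven between tubes. The median SD of a member was 0.133 in First-Actuated, 0.167 in Last-Actuated and 0.324 in Ground Control roots, beside 0.123, 0.153 and 0.204 for the 6022 probe sets with a First-Actuated mean of at least 3. The Ground Control SD was larger than the First-Actuated SD in 113 members, 84.3%, beside 69.0% of the 6022. Ground Control replicate 1 was the lowest of its tube in 101 members, 75.4%, beside 52.2% of the 6022, and Ground Control replicate 2 was the highest in 97 members, 72.4%, beside 56.4%. The limits use the Ground Control mean and values, and a low Ground Control value makes the difference larger. They therefore bear on these spreads and shares, and nothing is read from the contrast with the 6022. The median deviation of the members from their Ground Control mean was -0.28, 0.25 and 0.018 in Ground Control replicates 1, 2 and 3, against 1.06, 1.04 and 1.06 in First-Actuated replicates 1, 2 and 3.

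Single Ground Control arrays moved the members' differences and the list itself. Without Ground Control replicate 1 the median difference was 0.90, without replicate 2 it was 1.14, and without replicate 3 it was 1.07. Both limits on the differences were still met by 87, 98 and 109 of the 134 without Ground Control replicates 1, 2 and 3. Without Ground Control replicate 1, 74 members had a Last-Actuated mean above and 60 one below the Ground Control mean. The reason for the low values of this array was not tested.

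**Figure D4:**
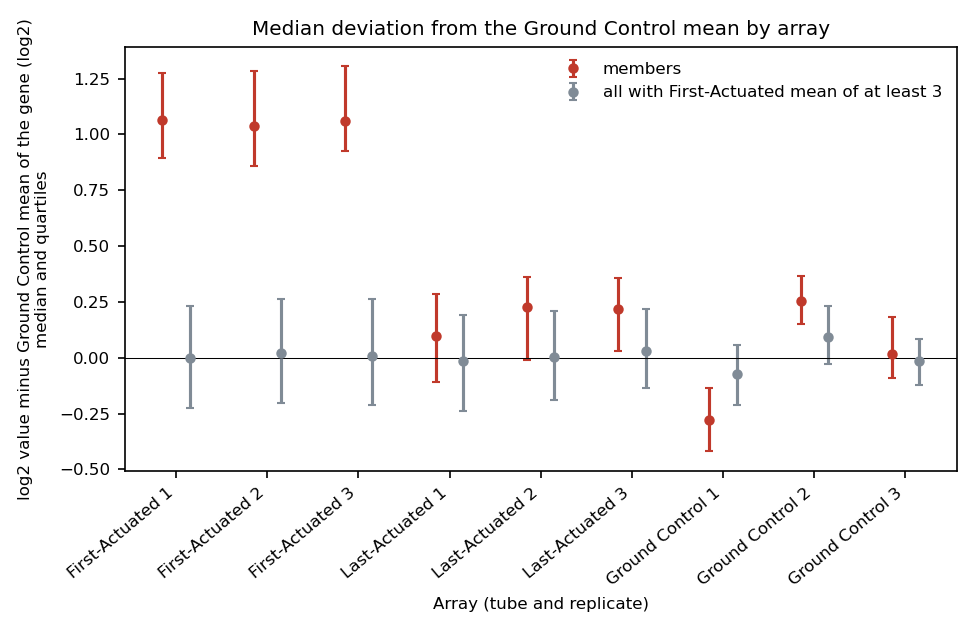
Median over genes of the log2 value minus the gene's Ground Control mean, on each array, for the 134 members (red) and for all 6022 probe sets with a First-Actuated mean of at least 3 (grey), with whiskers from the lower to the upper quartile. The members stand between 1.04 and 1.06 on the First-Actuated arrays, between 0.096 and 0.23 on the Last-Actuated arrays, and at -0.28, 0.25 and 0.018 on the Ground Control arrays.

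Beyond expression, the members were spread over the 5 chromosomes. By the TAIR10.1 gene table, 42, 13, 28, 28 and 23 of them lay on chromosomes 1 to 5, which is 31.3%, 9.70%, 20.9%, 20.9% and 17.2% of the members, beside 25.6%, 15.3%, 20.2%, 14.7% and 22.8% of all probe sets naming a single gene. On chromosome 3, AT3G56200 and AT3G56250 were separated by 4 protein-coding genes, and EXPA18 and AT1G63010 on chromosome 1 by 3. There were 4 pairs at up to 10 genes' distance, for which no expected number was computed, the other two being AT2G36580 with AT2G36690 and AT4G24410 with AT4G24480. The median gene length of the members was 2164 bases, beside 1912 bases over all listed genes.

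Only 2 members had a second probe set for the same gene, and neither second probe set met the limits. The other probe set of AT3G56410 had a First-Actuated minus Ground Control difference of 0.039, and that of AT4G24410 one of 0.31. The member probe sets, chosen for their difference, stood at 0.99 (AT3G56410) and 1.08 (AT4G24410), and the reason for the disagreement within each gene was not tested.

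Relatives of the members in the same pathway or family were then examined with limma across 16548 genes. The calls and medians of a list leave out its members, which were chosen for a large First-Actuated minus Ground Control difference. The limits thus partly set how few of the other genes rise in that comparison, and nothing is read from low numbers among them. In First-Actuated against Ground Control roots, 499 genes (3.02%) were called higher and 277 (1.67%) lower at a Benjamini-Hochberg adjusted p under 0.05. In Last-Actuated against Ground Control roots 0.58% were called higher and 0.332% lower, and in Last-Actuated against First-Actuated roots 0.985% higher and 1.26% lower. The lists for lignin monomers, sulphate, U-box proteins, expansins and glutaredoxins were drawn up after the members were known, so that the members in them are no evidence for the list. Counts at an unadjusted p under 0.05 are given below without the share of all 16548 genes, so nothing is read from them.

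Of 6 measured genes of lignin monomer synthesis 3 were members, and limma called 0 of the other 3 (HCT, UGT72E2 and UGT72E3) in any comparison, with 0 at an unadjusted p under 0.05 as well. HCT, which encodes an acyltransferase of the pathway, stood at 7.62, 7.82 and 7.68 in First-Actuated, 7.79, 7.70 and 7.84 in Last-Actuated and 7.53, 8.08 and 7.78 in Ground Control roots. UGT72E2 and UGT72E3, the closest relatives of UGT72E1, had First-Actuated minus Ground Control differences of 0.28 and 0.034.

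Of 4 measured genes of sulphate uptake and assimilation, APS3 and TAAC were members, while APS4, another ATP sulphurylase, and SIR, the sulphite reductase, differed by 0.058 and 0.060. Of 10 U-box genes 2 were members, and the other 8 had a median difference of 0.067, a highest difference of 0.27 and 0 calls by limma, with 0 at an unadjusted p under 0.05. Of 6 glutaredoxins GRX480 was a member, and limma called 0 of the other 5 in First-Actuated against Ground Control roots, with 0 at an unadjusted p under 0.05 and differences between -0.23 and 0.13. Of 18 expansins EXPA18 was a member. The other 17 had differences between -0.77 and 0.59, with 0 calls by limma and 7 at an unadjusted p under 0.05, among them EXPA7, in First-Actuated against Ground Control roots, where 1 was called lower without Ground Control replicate 2.

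The UDP-glycosyltransferases were the largest of these families, with 55 measured genes. Apart from the members UGT71B5 and UGT72E1, 4 of 53 were called higher and 1 lower in First-Actuated roots, with a median difference of 0.037. UGT73B5 had 4.57, 4.80 and 4.83 in First-Actuated, 4.58, 4.53 and 4.43 in Last-Actuated and 3.53, 3.94 and 4.08 in Ground Control roots, a rise of 0.88 (limma, adjusted p = 0.00797). UGT73B2 rose by 0.58 (limma, adjusted p = 0.00817), with 4.02, 4.16 and 3.94 in First-Actuated, 3.77, 3.88 and 3.87 in Last-Actuated and 3.44, 3.51 and 3.44 in Ground Control roots. Both relatives had Last-Actuated values above the whole Ground Control range, although neither was called in Last-Actuated roots. With First-Actuated replicate 2, First-Actuated replicate 3 or Ground Control replicate 1 left out, the number called higher was 2, without any other single array it was 3, and UGT73B5 and UGT73B2 stayed called without any single array. The 1 gene called lower, UGT85A2, had an adjusted p of 0.0117 by limma, which was 0.0509 without First-Actuated replicate 2 and 0.0614 without First-Actuated replicate 3, and 2 genes were called lower without Ground Control replicate 2.

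Among 5 measured early wound and stress regulators, PUB23 and PUB24 were members, and STZ, a zinc finger repressor, met the limits but was left out by name. STZ was 0.94 higher in First-Actuated than in Ground Control roots. Since it met the same limits as the members, this difference is given as a description, without a test. The other 2 were WRKY6, a transcription factor, at 0.46, and PUB22 at 0.27, neither called.

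Several lists held no member. Only 7 of 72 listed WRKY transcription factors and 7 of 23 listed genes of touch and calcium signalling were measured. The 7 touch genes matched the 7 measured calmodulin-like genes in every difference and count, so both lists are taken to hold the same measured genes. Limma called 0 of these WRKY and touch genes in any comparison. In First-Actuated against Ground Control roots 4 and 3 had an unadjusted p under 0.05. Here too no share of all genes is given, so nothing is read from these counts. Nothing is known here of the unmeasured genes. Without Ground Control replicate 1, 1 WRKY gene was called lower in Last-Actuated than in First-Actuated roots, and without Last-Actuated replicate 1 or 2, 1 touch gene was called higher in First-Actuated roots. The WRKY genes had median differences of 0.37 (First-Actuated minus Ground Control), -0.021 (Last-Actuated minus Ground Control) and -0.39 (Last-Actuated minus First-Actuated). Single WRKY genes went both ways, from -0.33 to 0.61 for First-Actuated minus Ground Control and from -0.83 to 0.32 for Last-Actuated minus First-Actuated. Among 6 auxin response genes, GH3.3, which encodes an auxin-conjugating enzyme, was 1.63 higher in First-Actuated than in Ground Control roots (limma, adjusted p = 0.00291) and 1.04 lower in Last-Actuated than in First-Actuated roots (adjusted p = 0.0478). The second p was 0.0844 to 0.169 without any 1 flight array or Ground Control replicate 3, and the Last-Actuated minus Ground Control difference of 0.59 was not called. LBD16, another auxin response gene, was called higher than Ground Control in both flight tubes, by 0.53 in First-Actuated and 0.71 in Last-Actuated roots. Its First-Actuated adjusted p by limma was 0.0699 to 0.141 without any 1 First-Actuated array, Last-Actuated replicate 3, or Ground Control replicate 1 or 3. Its Last-Actuated call held only without Last-Actuated replicate 2 or Ground Control replicate 2. All 8 measured heat shock genes were called higher in First-Actuated roots and 7 of 8 in Last-Actuated roots, with median differences from Ground Control of 2.33 and 1.99. AT1G07400 was called in First-Actuated roots with all arrays (limma, adjusted p = 0.0325) and had an adjusted p of 0.0505 to 0.129 without any 1 array other than Ground Control replicate 2, which left 7 of 8. AT1G52560, a small heat shock protein gene, averaged 11.10 in First-Actuated, 10.34 in Last-Actuated and 7.36 in Ground Control roots and so was far from ground level in both flight tubes.

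**Figure D5:**
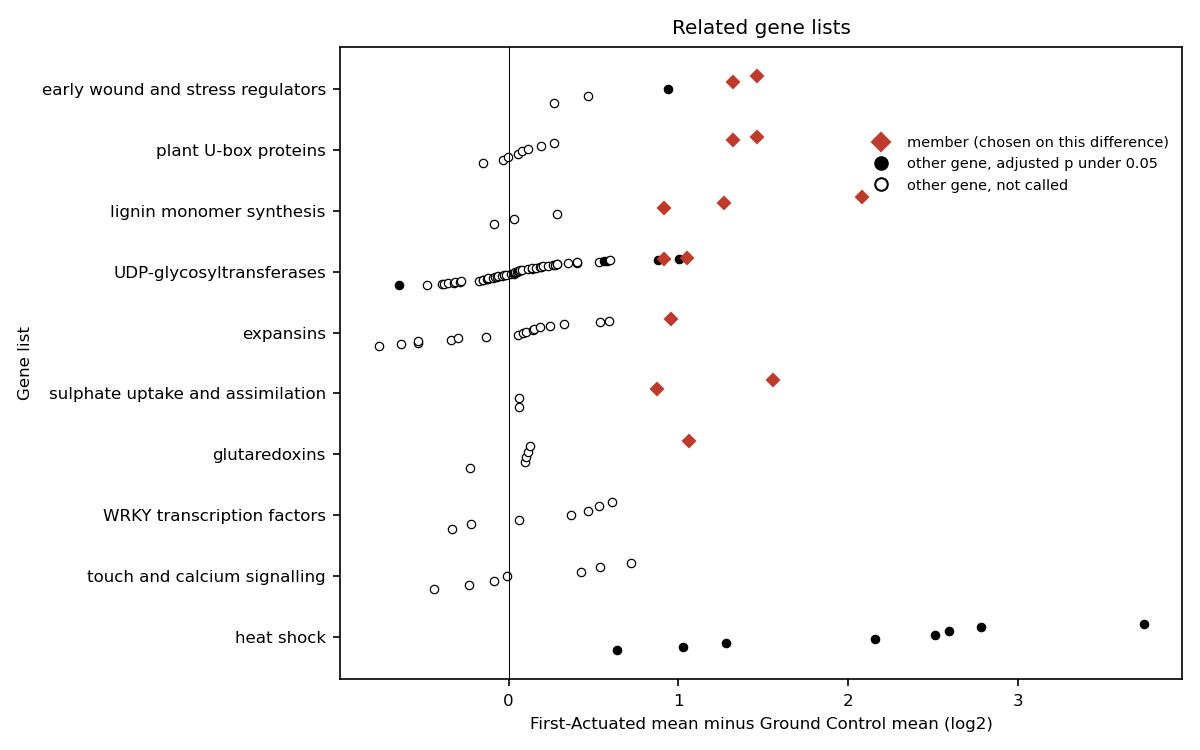
First-Actuated minus Ground Control mean (x axis, log2) of every measured gene in 10 gene lists (rows), with members as red diamonds and other genes as circles, filled where limma's adjusted p was under 0.05. STZ, a filled circle among the early wound and stress regulators, met the members' limits too, so its call is no support. The members lie at 0.88 or above by their choice, the other U-box, lignin and glutaredoxin genes between -0.23 and 0.28, and the heat shock genes between 0.64 and 3.74.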

How the data were processed

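RNA of whole roots from 9 samples was hybridised to AraGene 1.0 ST arrays, with 1 array per sample. The deposited values are log2 expression values per probe set, made with RMA according to the submitters' processing notes, which also list oligo, limma, R 4.0.0 and, as the build, TAIR10. Further details of that step are not given. The table holds 38408 probe sets with values between 0.0515 and 13.8. The naming table gave 1 gene for 16722, several for 759 and none for 20927, and 16574 of the first matched the TAIR10.1 gene table, which served for names, chromosomes, lengths and gene order. No sequence was used. The number of arrays limits the precision, and no detection calls were used.

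The members and gene lists were chosen with earlier results of these data known. The 3 groups were compared with limma 3.58.1 in R 4.3.3 on the deposited log2 values, adjusting p-values by Benjamini-Hochberg over 16548 genes (residual degrees of freedom 6, prior 3.89). The 148 genes with more than 1 probe set were represented by the one with the highest mean. Tables and figures were made with Python 3.11.15, pandas 2.3.3, numpy 2.4.6 and matplotlib 3.10.9, and the fit was tested on simulated data.

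Named members are the 12 largest differences, the 5 highest First-Actuated means, those nearest each limit and those with a known role, with others given by range. Named non-members are the called list genes with the smallest p. The values of PUB22, EXPA7, AT1G07400, UGT85A2, HCT, UGT72E2, UGT72E3, APS4, SIR, WRKY6, LHB1B2, RCA and LHCB4.1 were given after they were seen. The alternatives were other limits for membership, repeated quantile normalization, cyclic loess, filters on dim genes, moderation with trend, a stricter threshold, the replicate number as a block, and fits without each array in turn.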

Additional observations from a re-analysis of the deposited data

Results flagged for a closer look

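The same limits were also met by probe sets outside the 16722 that name a single gene. Of the 20927 probe sets without a listed gene, 153 met them, which is 0.731%, beside 0.813% of the probe sets naming a single gene. Their First-Actuated minus Ground Control differences ran from 0.80 to 3.63 with a median of 1.09. Of the 759 probe sets that name several genes, 3 met the limits, which is 0.395%, with differences of 0.89 to 1.30. These probe sets were noted because they hold signal that the description of the 134 genes does not use. No gene is named for them here.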

How the results depend on the processing

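The count of 134 members moved with the limit on the difference: 72 genes met a limit of 1.0 and 242 a limit of 0.6. The limit on the Last-Actuated tube was tried only at a tighter setting, so its weight was not compared. Under 5 other limits and normalizations, planned with the rest, the count was 99 to 145. With repeated quantile normalization 117 and with cyclic loess 128 of the 134 were shared. Leaving out 1 array at a time gave 122 to 156 members, of which 87 to 127 were among the 134; the fewest were shared without Ground Control replicate 1. At an adjusted p under 0.01, limma called 327 genes in First-Actuated against Ground Control, 43 in Last-Actuated against Ground Control and 94 in Last-Actuated against First-Actuated roots, beside 776, 151 and 371 at 0.05. With tests restricted to genes above the median level, 255 were called in Last-Actuated against Ground Control roots, where fewer genes were tested. Without 1 array at a time the 3 counts ran from 384 to 1253, from 53 to 508 and from 100 to 495, with 1253 and 508 found without Ground Control replicate 2, and 495 without Ground Control replicate 1. Same-numbered samples did not deviate together (correlations across genes of -0.11 to 0.070). The labels do not state whether the replicate numbers pair the samples, and these correlations cannot exclude it. With the replicate number as a block 700, 109 and 303 genes were called. Members are not tested, so no block applies to them. With 3 arrays from 1 tube per condition, differences between tubes that have nothing to do with the flight cannot be told apart from its effect.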
